A study of Homo sapiens with 24 samples.

Results

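Among the 12 libraries collected at 12 h, the 4 whose table column ends in the number 4 were set against the 8 whose columns end in 1 or 2, always within the same siRNA and treatment group. The whole series holds 24 libraries, 12 of them from 8 h. The cells were A549, a human lung adenocarcinoma line. They received a SMARTpool siRNA against BOP1 (siBOP1) or an siRNA against firefly luciferase (siFLuc), an insect gene, for 48 h. They were then given a mock treatment or interferon beta (IFN) at 1000 U/mL. At each time this makes 4 groups, siFLuc mock, siFLuc IFN, siBOP1 mock and siBOP1 IFN, each with 1 library numbered 1, 1 numbered 2 and 1 numbered 4. The labels number the replicates of a group up to 3, so the columns numbered 4 were placed by group only. The labels do not say whether same-numbered libraries share a culture or a preparation day, and p-values measure only the spread between these libraries. If the libraries numbered 4 share a source, 4 of them are not 4 independent repeats. The study concerns ribosome biogenesis and translation during the interferon response.

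The set was chosen by its 12 h TPM values, which had been seen to differ from those of the other libraries, so every 12 h difference below is a description and carries no p-value. Adjusted p-values are given for the 8 h libraries, which are separate, and for the question of whether the 12 h difference depended on IFN or on the siRNA. Values are in TPM, a length-corrected abundance in which every library has the same total. A higher share of some transcripts therefore lowers the share of others, and fewer cells of a type cannot be told apart from less RNA per cell. Differences are the library numbered 4 minus the mean of numbers 1 and 2 on the log2(TPM + 1) scale, which understates changes of low genes. "Higher" or "lower" in a 12 h count means past an adjusted limit of 0.05 in the limma fit, used here only to sort genes.

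The stress programmes described here have well-known roles. In the integrated stress response, phosphorylation of the translation factor eIF2 slows protein synthesis while the transcription factor ATF4 is translated and switches on genes for amino acid synthesis, amino acid transport and the factor CHOP, which DDIT3 encodes. Immediate early genes such as FOS and EGR1 are transcribed within minutes of growth factor or stress signalling through ERK and related kinases, and their products include the phosphatases that end the signal. The p53 programme arrests or kills damaged cells, NF-kB drives inflammatory cytokines and its own inhibitors, and hypoxia-inducible factors (HIF) turn on glycolysis and oxygen-sparing genes.

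BOP1, a factor needed for large ribosomal subunit maturation and the siRNA target, was checked first. In mock cells at 12 h it was 15.6, 15.4 and 13.7 TPM with siBOP1 in libraries 1, 2 and 4, against 51.9, 59.2 and 78.8 TPM with siFLuc. With IFN it was 10.7, 10.0 and 12.5 TPM against 44.0, 32.4 and 61.6 TPM. All libraries therefore followed their siRNA label. The BOP1 level in siBOP1 cells was 17.3% (mock) and 20.3% (IFN) of control in the libraries numbered 4, and between 24.3% and 30.9% in the others.

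Across the table, libraries 1 and 2 of a 12 h group had Pearson r of 0.985 to 0.988 over genes, and library 4 with either of them 0.961 to 0.977. The limma fit called 4568 of 16062 genes higher (28.4%) and 1280 lower (7.97%) in the libraries numbered 4, whereas number 2 against number 1 gave 1 gene higher and 0 lower (506 at an unadjusted p under 0.05). Library 4 lay above both others in all 4 groups for 24.1% of genes and below both for 6.95%. All transcripts of the mitochondrial genome, its ribosomal RNAs included, took 6.86% to 12.2% of TPM in the libraries numbered 4 and 12.8% to 15.9% in the others, and the median of all genes was 0.12 higher. After median-of-ratios rescaling that median was -0.01 and the split became 2282 higher and 2378 lower. The direction of a list median near 0 or 0.12 can therefore depend on the scaling. One library stood apart within the set: siFLuc mock number 4 had the lowest mitochondrial share. Where it moved a list count or median printed below by over 1.5 times, the value without it is given too. The part of the mitochondrial share in the other differences was not tested. Epithelial keratins were abundant in both sets (KRT8 averaged 2851 TPM in number 4 and 3045 TPM in the others). NKX2-1 and the surfactant genes SFTPA1, SFTPA2, SFTPB, SFTPC and SFTPD did not reach 1 TPM in enough libraries to be tested. Of the 19 lung epithelium and alveolar type II markers, 12 were tested, so these silent genes do not stand for the whole list. Among the 12 tested, 2 were higher (16.7%, against 28.4% of all genes) and 1 lower (8.3%, against 7.97%). Of 12 fibroblast, 13 leukocyte and 9 endothelial markers, 3, 3 and 2 were tested, and their summed levels overlapped between the sets.

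Genes of the integrated stress response were higher in all 4 groups. Of 39 tested ATF4 targets and regulators, 36 were higher and 2 lower, with a median difference of 0.73 (between 0.59 and 0.96 in the 4 groups) against 0.12 for all genes. Because the choice of set used this contrast, nothing is read from the count against the 28.4% of all genes that were higher. DDIT3 (chr12:57516588-57521737 on GRCh38), which encodes the pro-apoptotic factor CHOP, was at 107, 124, 87.9 and 77.6 TPM in the libraries numbered 4 (in the order siFLuc mock, siFLuc IFN, siBOP1 mock, siBOP1 IFN, used throughout). The 8 others had a lowest value of 7.62, a median of 11.1 and a highest of 17.96 TPM. The 2 sets did not overlap, and the difference was 2.95, an 8.06-fold ratio of mean TPM.

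GDF15, a secreted stress cytokine that is a target of both ATF4 and p53, was at 288, 451, 276 and 257 TPM against 40.1 to 73.2 (median 54.1) TPM. PPP1R15A, which encodes the GADD34 subunit that removes the phosphate from eIF2, was at 496, 145, 66.1 and 66.1 TPM against 18.4 to 38.9 (median 26.3) TPM. Neither gene overlapped between the sets, but PPP1R15A was far higher in the siFLuc mock library than in the rest, whereas GDF15 was not. CHAC1, a glutathione-degrading enzyme downstream of ATF4 and CHOP, showed the opposite order within the set. It was at 4.14 TPM in that siFLuc mock library and at 34.9, 17.1 and 30.2 TPM in the other libraries numbered 4, against 1.36 to 3.82 (median 2.29) TPM.

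Enzymes of amino acid metabolism were among the higher members. The mitochondrial folate enzyme MTHFD2 averaged 2.67 times the level of the others (173, 218, 130 and 181 TPM against 54.4 to 78.3). The serine synthesis enzymes PSAT1 and PHGDH had ratios of 2.11 and 1.67, and asparagine synthetase ASNS 1.90. SESN2, a sestrin that restrains mTORC1 when leucine is low, was at 17.03, 25.8, 14.8 and 16.9 TPM against 2.62 to 3.94 TPM, again with no overlap. ATF4 mRNA itself, whose protein is controlled mainly by translation, was higher by 0.39, less than most of its targets. The 2 members that were lower were the lipoprotein receptor VLDLR (-0.64) and ATF5 (-0.53), a relative of ATF4.

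Promoter sequences were searched for the composite C/EBP-ATF site that ATF4 binds (TGATGCAA or its reverse complement TTGCATCA) in RefSeq promoters of 300 bases, reaching from upstream of the annotated start to just inside the gene. It was found in 3 of 33 promoters of the list (9.1%) and in 51 of 10989 promoters of all tested genes (0.46%). The list was written as ATF4 targets, so a higher share follows from the choice of members and says nothing of why they differed. Windows of 30 bases are shown for CHAC1 and for AARS1, the alanine tRNA ligase, since both were higher at 12 h (by 2.44 and 0.69). Capitals mark the site, coordinates are GRCh38.p14, and each is written 5′ to 3′ on the gene's strand.
CHAC1, chr15:40953251-40953280, plus strand: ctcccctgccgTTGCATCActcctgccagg
AARS1, chr16:70289675-70289704, minus strand: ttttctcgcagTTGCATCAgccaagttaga
Most of the higher ATF4 targets did not have these letters in that window, which says nothing of sites elsewhere.

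**Figure D1:**
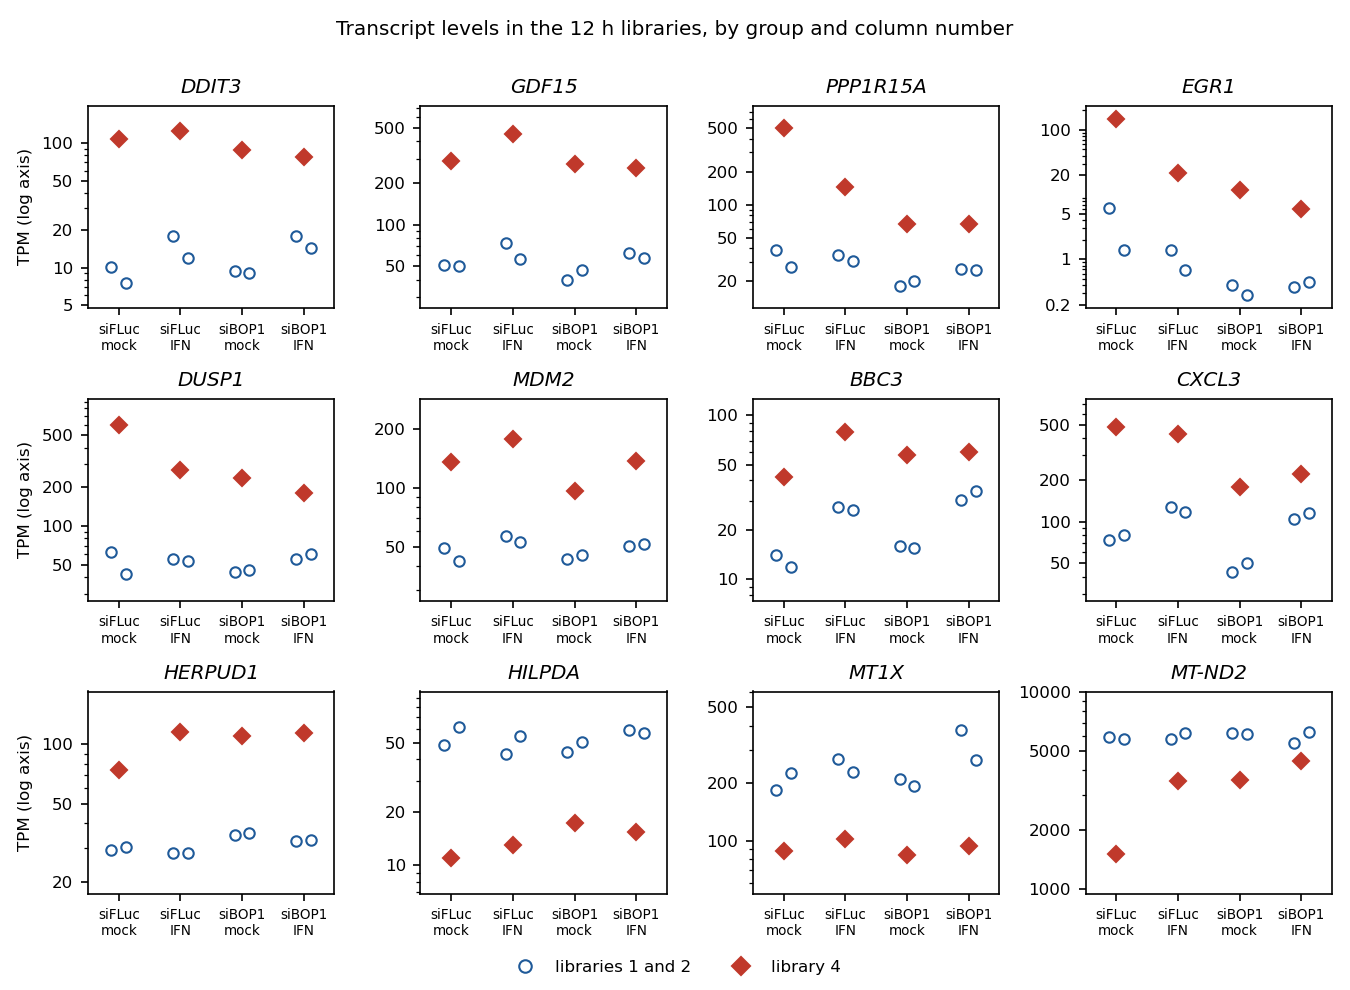
TPM on a log axis in the 12 libraries of 12 h for 12 genes, by group. Open circles are libraries 1 and 2 and red diamonds library 4 of the same group; in each panel the diamond lies above both circles in all 4 groups, except for HILPDA, MT1X and MT-ND2, where it lies below both. EGR1, PPP1R15A and DUSP1 are highest, and MT-ND2 lowest, in siFLuc mock number 4.

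Immediate early genes and the feedback inhibitors of ERK signalling were also higher. Of 32 tested, 26 were higher (81.2%, against 28.4% of all genes) and 0 lower. The median was 0.91, or 0.74 without siFLuc mock number 4. EGR1 (chr5:138465490-138469315), a zinc finger transcription factor, was at 148, 21.4, 11.7 and 6.09 TPM, and the others had a lowest value of 0.283, a median of 0.567 and a highest of 6.24 TPM. Within each group library 4 was above both others, although the lowest of the 4 lay just under the highest of the 8. FOS, a partner of JUN in the AP-1 factor, was at 221, 23.1, 21.0 and 13.9 TPM against 3.93 to 9.43 (median 4.67) TPM. The sets did not overlap for FOS, and the siFLuc mock library again held by far the highest value.

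Phosphatases that switch the pathway off were among the higher members. DUSP1, which dephosphorylates p38, JNK and ERK in the nucleus, was at 595, 267, 235 and 178 TPM against 42.2 to 63.1 (median 54.2) TPM. DUSP6, the cytoplasmic ERK phosphatase, was at 39.6, 43.8, 27.1 and 24.2 TPM against 4.68 to 8.45 (median 6.91) TPM. Neither overlapped between sets. AREG, a ligand of the EGF receptor, was at 180, 157, 76.8 and 123 TPM against 22.3 to 39.0 (median 27.7) TPM, and its neighbour EREG, a second such ligand, had a ratio of 4.10. The AP-1 members JUN, JUNB and FOSL1 had ratios of 4.54, 2.10 and 3.41.

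The CArG box, the site of serum response factor, was in 1 of 26 promoters of this list (3.8%) and in 0.98% of all. Lists that were not mostly higher had it as often: 2 of 25 promoters of small ribosomal subunit proteins (8.0%) and 3 of 62 of interferon-stimulated genes (4.8%). It was in 0 of 31 p53 target promoters, a list that was mostly higher. A single match does not tie the immediate early list to this site, and no such link was tested. The promoter with the match was EGR1, the gene of the list with the largest difference, which held 2 of these boxes upstream of its start (capitals).
EGR1, chr5:138465364-138465393, plus strand: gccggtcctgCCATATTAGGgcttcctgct
EGR1, chr5:138465386-138465415, plus strand: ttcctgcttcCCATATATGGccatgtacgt

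NF-kB targets divided into a higher and a lower part. Of 38 tested, 23 were higher (60.5%, against 28.4% of all genes) and 7 lower (18.4%, against 7.97%). The median was 0.54, or 0.42 without siFLuc mock number 4. The fast-responding members were among the higher ones: NFKBIA, the inhibitor that ends NF-kB signalling, was at 705, 409, 207 and 307 TPM against 79.0 to 183 (median 138) TPM. The neutrophil chemokine CXCL3 was at 480, 429, 177 and 222 TPM against 43.0 to 127 (median 91.7) TPM. The cytokine IL6 was at 49.2, 78.5, 19.2 and 46.5 TPM against 4.10 to 31.1 (median 14.4) TPM. NFKBIA and CXCL3 did not overlap between the sets, whereas IL6 overlapped across groups and was above both others within each group. The 7 lower members were LCN2, an iron-sequestering protein at 170, 242, 283 and 295 TPM against 350 to 457 TPM, complement C3, the serum amyloid genes SAA1 and SAA2, CCL5, CXCL6 and IL32. Acute phase and plasma proteins as a list had 6 of 16 members lower (37.5%) and 1 higher (6.2%). Their median was -0.25 (-0.14 without siFLuc mock number 4). CP (ceruloplasmin, -0.84) and CFB (complement factor B, -0.83) differed most.

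p53 targets were higher in 28 of 38 cases (73.7%, against 28.4% of all genes) and lower in 1. Their median was 0.43 and their group medians were 0.26 to 0.59. In contrast to the immediate early genes, this list was lowest in siFLuc mock. MDM2, the ubiquitin ligase that degrades p53, was at 136, 179, 96.1 and 138 TPM against 42.4 to 56.7 (median 50.1) TPM. BBC3, which encodes the apoptosis inducer PUMA, was at 41.9, 78.9, 56.99 and 59.6 TPM against 11.8 to 34.4 (median 21.1) TPM, and the phosphatase PPM1D, a brake on p53, was at 29.5, 28.2, 31.5 and 19.4 TPM against 6.79 to 11.4 TPM. None of these 3 overlapped between the sets. CDKN1A, the cell cycle inhibitor p21, was higher by 0.54, a ratio of 1.47.

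In the unfolded protein response of the endoplasmic reticulum (ER), 16 of 25 genes were higher (64.0%, against 28.4% of all genes) and 0 lower. The median was 0.30 (0.16 after median-of-ratios rescaling). HERPUD1, a component of ER-associated degradation, was at 74.1, 116, 111 and 115 TPM against 28.1 to 35.7 (median 31.2) TPM. DNAJB9, an ER co-chaperone, was at 33.6, 82.0, 60.8 and 78.3 TPM against 13.9 to 22.6 (median 17.04) TPM. Both sets were apart for these genes, whereas the main ER chaperone HSPA5 had a ratio of 1.30 and overlapped across groups. The chaperones CALR, PDIA3 and HSP90B1 were not called.

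For some heat shock genes the difference rested on a single library. HSPA6, an inducible HSP70 that is nearly silent without proteotoxic stress, was at 231 TPM in siFLuc mock number 4 and at 0.297, 0.235 and 0.277 TPM in the other libraries numbered 4, against 0.078 to 9.15 (median 0.113) TPM. HSPA1A, whose reads can be shared with its near-identical copy HSPA1B, was at 1445 TPM there and at 380, 211 and 183 TPM in the other 3, against 190 to 375 (median 282) TPM. DNAJB1, the HSP40 partner of HSP70, was at 620 TPM there and at 77.8, 94.2 and 72.3 TPM in the other 3, against 61.4 to 109 (median 81.0) TPM. HSPA1A, HSPA1B and DNAJB1 stood out in that library and were not called over the 4 groups. The list of 27 had 18 members higher (66.7%, against 28.4% of all genes) and 0 lower, with a median of 0.33. Without that library the counts were 15 and 1, where 3651 and 962 of all 16062 genes were higher and lower. The list median was then 0.19, close to the 0.11 of all genes. HSPH1 and HSPA4L, of the HSP110 family, were higher in each group, with ratios of 2.35 and 2.40. The HSPH1 difference of 1.01 was 0.64 without that library.

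**Figure D2:**
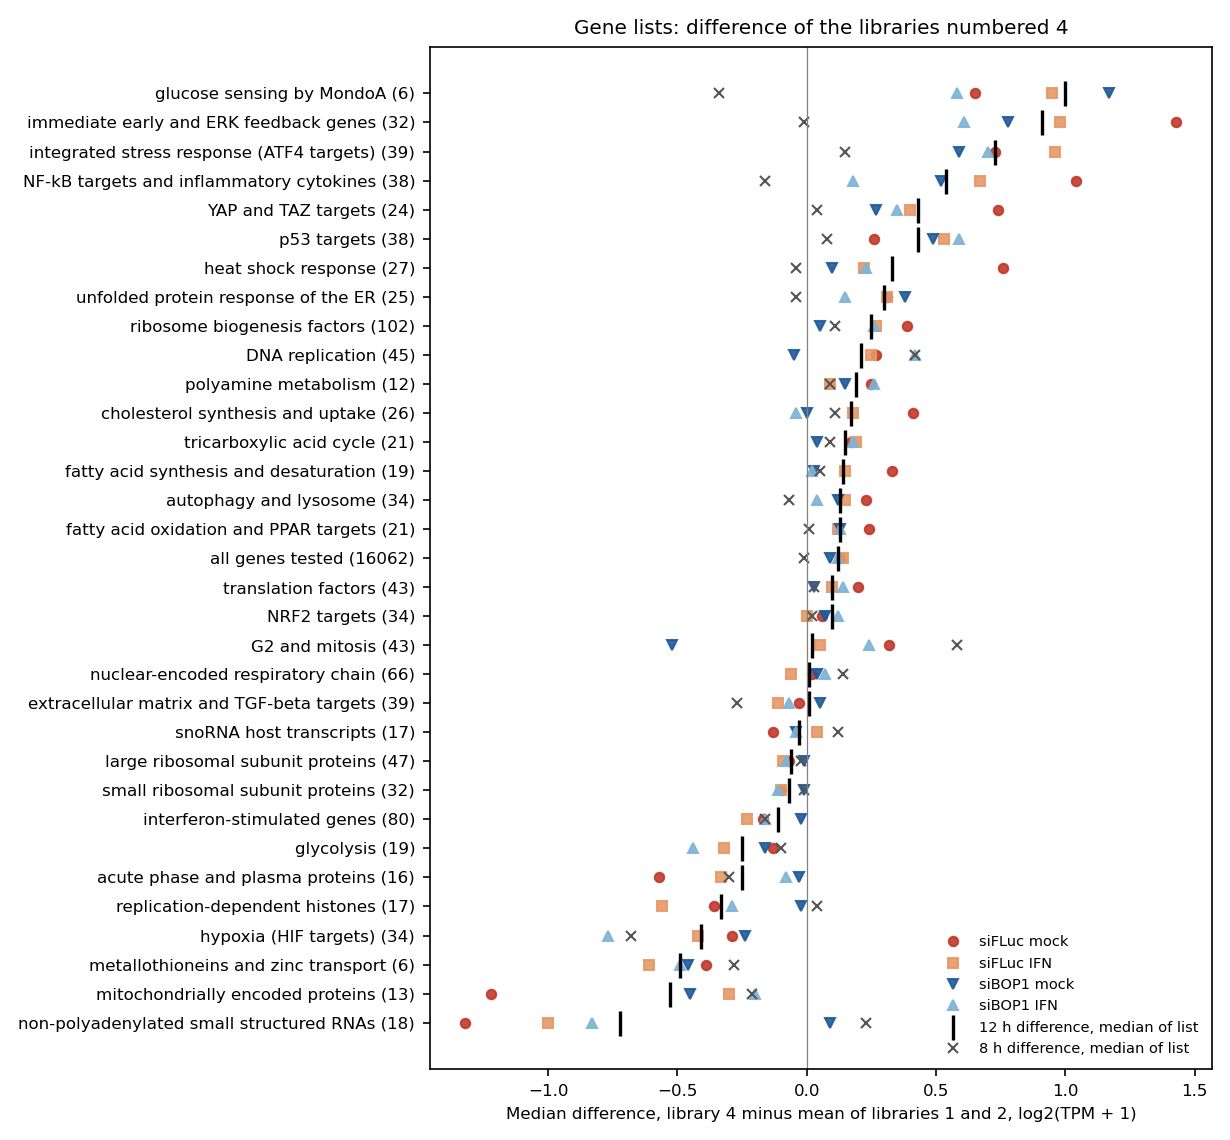
Median difference of each gene list (number of tested genes in parentheses) on the log2(TPM + 1) scale. Coloured symbols are the 4 groups at 12 h, bars the 12 h and crosses the 8 h difference over groups; the integrated stress response, immediate early and p53 lists lie right of the median of all genes (0.12) in all 4 groups, hypoxia lies left of 0 in all 4, and heat shock is at 0.76 in siFLuc mock and at 0.10 to 0.23 in the rest.

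Other inducible programmes showed the same direction. Of 24 YAP and TAZ targets, which respond to cell shape and adhesion, 14 were higher (58.3%, against 28.4% of all genes) and 1 lower (median 0.43). The matricellular genes CCN1 and CCN2 had ratios of 2.99 and 2.52, while the exception, the growth factor binding protein IGFBP3, was at 141, 232, 234 and 210 TPM against 297 to 747 TPM. Among 6 genes of glucose sensing by MondoA, the thioredoxin inhibitor TXNIP was at 3.504, 13.9, 17.8 and 17.1 TPM against 1.85 to 12.7 TPM, and its relative ARRDC3 had a ratio of 2.30. The largest differences also included NGFR, the low-affinity neurotrophin receptor, at 24.2, 16.1, 6.94 and 1.77 TPM against at most 1.08 TPM. VTRNA2-1, a short vault RNA, was at 9.38 to 15.04 TPM in the libraries numbered 4 and had a median of 0 in the others, a level at which estimates of so short a transcript are uncertain.

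Hypoxia genes went the other way. Of 34 HIF targets, 20 were lower (7.97% of all genes were) and 3 higher, with a median of -0.41. HILPDA (chr7:128455849-128458418), a lipid droplet protein, was at 10.96, 12.9, 17.4 and 15.3 TPM against 42.7 to 61.1 (median 52.3) TPM. The prolyl hydroxylase EGLN3, which marks HIF for degradation, was at 5.35, 5.44, 8.58 and 8.40 TPM against 13.9 to 25.04 (median 16.8) TPM. The sets were apart for both genes. MIR210HG, the host transcript of miR-210, was at 1.28, 6.23, 4.88 and 10.1 TPM against 18.7 to 29 TPM, a difference of -2.08 without overlap. BNIP3, a mitophagy receptor, was at 55.4 to 91.1 TPM against 94.5 to 194 TPM. The 3 higher members were the angiogenic factor VEGFA (ratio 1.26), the ephrin EFNA1 (1.62) and ANKRD37 (0.55 on the log2 scale).

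The core of the hypoxia response element (ACGTG or CACGT) was in 14 of 27 promoters of the list (51.9%) and in 26.73% of all. The list was written as HIF targets, so a higher share follows from the choice of members and says nothing of why they differed. The core was in 43 of 86 promoters of the ribosome biogenesis list, of which 3 genes were lower. BNIP3, which was lower, and ANKRD37, which was higher, both carry it, and are shown to set members of opposite direction side by side.
BNIP3, chr10:131982039-131982068, minus strand: cgcacgcgccgcACGTGccacacgcacccc
ANKRD37, chr4:185396668-185396697, plus strand: gcgccgggctccACGTGccagtgtttgtgt

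Glycolysis followed hypoxia at a smaller size. Of 19 genes, 13 were lower (68.4%, against 7.97% of all genes) and 1 higher, with a median of -0.25. The lactate exporter SLC16A3 was at 51.5, 103, 91.9 and 113 TPM against 102 to 261 (median 158) TPM, and the kinase PGK1 was at 598, 711, 616 and 618 TPM against 776 to 1234 (median 1043) TPM. Lactate dehydrogenase LDHA had a ratio of 0.75 and GAPDH of 0.86. PGK1 and LDHA did not overlap between the sets, SLC16A3 did across groups, and GAPDH was the 1 named gene whose 12 h difference changed sign under quantile normalization (-0.21 to 0.02).

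Mitochondrially encoded mRNAs were lower in 12 of 13 cases (92.3%, against 7.97% of all genes). Their median was -0.53, or -0.32 without siFLuc mock number 4. After median-of-ratios rescaling 13 were lower, with a median of -0.67. Under quantile normalization 5 were lower, with a median of -0.39, and MT-ND1 was not among them. MT-ND2, a subunit of respiratory complex I, was at 1512, 3550, 3580 and 4481 TPM against 5533 to 6299 (median 6018) TPM. MT-ND1 was at 1304, 3859, 3508 and 4451 TPM against 4771 to 5523 TPM. Both genes were below all 8 others in every library numbered 4 and lowest in siFLuc mock. The nuclear-encoded respiratory chain had a median of 0.01, against 0.12 for all genes. Of its 66 genes 5 were higher (7.6%, against 28.4% of all genes) and 2 lower (3.0%, against 7.97%). Without siFLuc mock number 4, 1 was higher and 1 lower. After median-of-ratios rescaling 0 were higher and 18 lower, with a median of -0.14. At 8 h 21 were higher, against 6.86% of all genes, and 0 lower (median 0.14). The tricarboxylic acid cycle had a median of 0.15 that became 0.00 after median-of-ratios rescaling. Of its 21 genes 11 were higher (52.4%, against 28.4% of all genes) and 0 lower, or 4 and 0 without siFLuc mock number 4. The metal-binding protein MT1X was at 87.8, 102, 84.5 and 94.4 TPM against 184 to 378 (median 228) TPM, without overlap. In the metallothionein list 4 of 6 genes were lower (66.7%, against 7.97% of all genes).

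Ribosome biogenesis factors, the programme BOP1 belongs to, had 58 of 102 members higher (56.9%, against 28.4% of all genes) and 3 lower. Their median was 0.25. After median-of-ratios rescaling 23 were higher and 4 lower, with a median of 0.11. Among members with a mean of at least 5 TPM, the largest difference was a fall. UTP3 was below both others in every group (-1.05, a ratio of 0.48). The kinases RIOK1 and RIOK2, which mature the small subunit, had ratios of 1.79 and 1.85. Of the ribosomal proteins, 11 of 47 of the large subunit (23.4%) and 5 of 32 of the small subunit (15.6%) were lower and 0 higher. Of all genes, 7.97% were lower. Without siFLuc mock number 4, 9 and 2 of the ribosomal proteins were lower. Their medians of -0.06 and -0.07 became 0.00 and -0.03 under quantile normalization, and -0.21 for both after median-of-ratios rescaling. Cholesterol, fatty acid, NRF2 and autophagy lists had medians of 0.10 to 0.17, near that of all genes. The cholesterol median of 0.17 was 0.04 without siFLuc mock number 4. Of 34 autophagy and lysosome genes, 13 were higher (38.2%, against 28.4% of all genes) and 2 lower (5.9%, against 7.97%). Without siFLuc mock number 4 these counts were 7 and 2.

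Of 80 interferon-stimulated genes, 22 were lower (27.5%, against 7.97% of all genes) and 2 higher (2.5%, against 28.4%), with a median of -0.11. The median IFN response of the 80 genes was 3.91 in library 4 against 4.02 and 4.04 in libraries 1 and 2 with siFLuc, and 3.98 against 3.92 and 4.06 with siBOP1. IFIT1, an RNA-binding antiviral protein, was at 554 and 841 TPM in the IFN-treated libraries numbered 4, 0.818 and 0.973 TPM in mock, and below both others in each group. APOL2, an apolipoprotein L gene, had a ratio of 0.46.

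Gene structure also separated the genes. Among nuclear protein-coding genes with a mean of at least 5 TPM, the 110 annotated with a single exon had a median of -0.35, with 58.2% lower and 5.5% higher, and their group medians lay between -0.39 and -0.25. The 4565 genes with over 10 exons had a median of 0.19 and 4.7% lower. Among 86 single-exon genes of middle transcript length the median was -0.37, against 0.16 for 3059 genes of that length with 5 to 10 exons. UBQLN2, a proteasome shuttle factor, was at 14.9, 5.45, 6.26 and 7.41 TPM against 13.9 to 20.2 TPM. ATXN7L3B was at 6.90 to 9.53 TPM against 20.6 to 23.3 TPM. The sets were apart for ATXN7L3B and overlapped for UBQLN2. JUN and JUNB, which also have a single exon, were higher, so the class was not uniform. At 8 h the single-exon class had a median of -0.02.

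**Figure D3:**
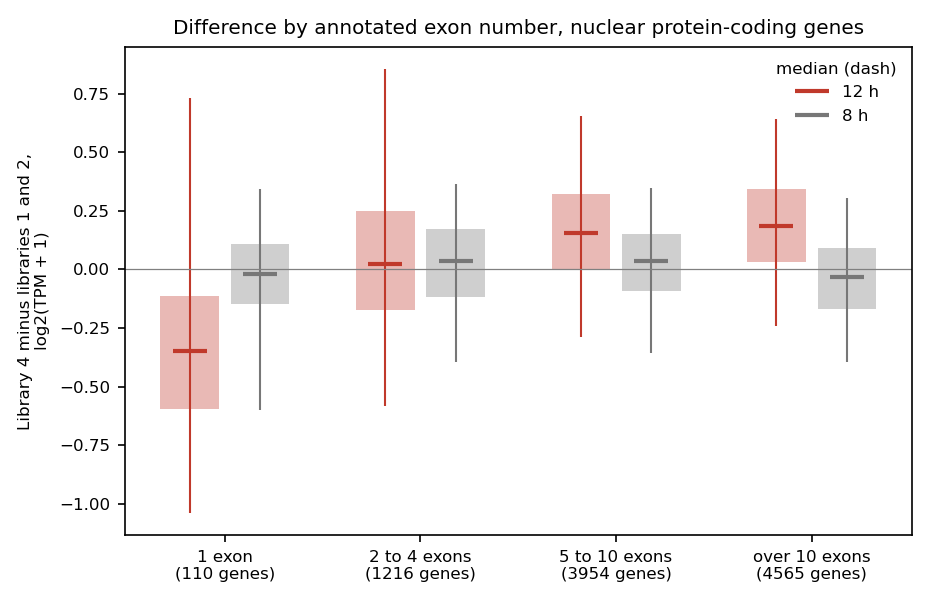
Difference of the libraries numbered 4 by the largest annotated exon number, nuclear protein-coding genes, on the log2(TPM + 1) scale. Dashes are medians, boxes the middle 50% and lines the 5th to 95th percentile; at 12 h the median runs from -0.35 (1 exon) to 0.19 (over 10 exons), and at 8 h all 4 medians are within 0.04 of 0.

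The 8 h libraries gave a separate test of the same numbered set. The limma fit called 1102 genes higher (6.86%) and 1083 lower (6.74%), the shares to set beside each 8 h list count below. Library 4 lay above both others in all 4 groups for 9.35% of genes and below both for 9.81%. Number 2 against number 1 at 8 h gave 3 genes higher and 12 lower, but 3016 at an unadjusted p under 0.05, against 4592 for number 4. The spread between libraries 1 and 2 was thus itself partly shared between groups at 8 h, with correlations of 0.091 to 0.188 over genes. Leaving out the siFLuc mock library numbered 4 reduced this to 441 and 455, leaving out siFLuc IFN number 4 to 519 and 522, and leaving out siBOP1 IFN number 4 to 727 and 619. Of the 4568 genes higher at 12 h, 558 (12.2%) were also higher at 8 h, which is 50.6% of the 8 h list, and 202 were lower. Of the 1280 lower genes, 333 (26.0%) were also lower at 8 h, which is 30.7% of that list, and 26 were higher. Across the 16062 genes the 12 h and 8 h differences had a Pearson r of 0.237, as a description, since genes are not independent.

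Hypoxia genes were lower at both times. At 8 h 28 of 34 were lower and 0 higher, with a median of -0.68 against -0.01 for all genes. HILPDA was at 23.3 to 37.3 TPM in the libraries numbered 4 and 42.2 to 61.9 TPM in the others (-0.71 ± 0.09 SE, limma adjusted p = 0.000897). The glucose transporter SLC2A3 had the largest difference of the list (-1.24, limma adjusted p = 7.12e-05), at 16.6 to 28.0 against 34.8 to 69.9 TPM. VEGFA and EFNA1, both higher at 12 h, were lower at 8 h (-0.35 and -1.02, limma adjusted p = 0.00648 and 0.000178). Glycolysis genes had 8 of 19 lower and 1 higher, among them PGK1 (-0.45, adjusted p = 0.000328).

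The stress lists had smaller medians at 8 h. In the integrated stress response 12 of 39 passed the test upward and 5 downward, with a median of 0.15. DDIT3 was at 11.6 to 18.8 TPM against 6.98 to 14.4 TPM (0.50 ± 0.13 SE, limma adjusted p = 0.0314), CHAC1 differed by 0.71 (adjusted p = 0.0140) and GDF15 by 0.54 (adjusted p = 0.00788). The 5 lower genes included DDIT4, an mTORC1 inhibitor, at -0.61 (adjusted p = 0.00078). Of the 32 immediate early and ERK feedback genes, 7 passed upward and 5 downward at 8 h, with a median of -0.01. EGR1 (-0.10) and FOS (-0.29) did not pass the test. Upward, the EGF receptor ligands AREG (1.14, adjusted p = 0.000178) and EREG (0.70, adjusted p = 0.00258) and the AP-1 member FOSL1 (1.23, adjusted p = 0.00388) passed in the limma fit. Downward, the AP-1 member JUNB (-0.67, limma adjusted p = 0.000193) passed, although it was higher at 12 h. AREG did not overlap at 8 h either, with 50.1 to 69.3 against 20.3 to 28.3 TPM.

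Other members were in opposite directions at the 2 times. NF-kB targets had 15 of 38 lower and 3 higher at 8 h: CXCL8, the chemokine IL-8, was lower by limma (-0.80, adjusted p = 5.9e-05) at 8 h and had a ratio of 1.77 at 12 h. ARRDC3 and TXNIP were likewise lower at 8 h (-0.79 and -0.74, limma adjusted p = 0.000184 and 0.0156). p53 targets gave 6 of 38 higher and 1 lower, with AEN, an apoptosis-linked nuclease, at 0.56 (adjusted p = 0.0011) and MDM2 at 0.07 without passing. Heat shock genes gave 1 higher and 4 lower. The difference between times was not tested itself.

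Cell cycle genes were higher at 8 h. Of 43 genes of G2 and mitosis, 36 passed upward at 8 h and 0 downward (median 0.58), while 2 were higher at 12 h (median 0.02, or -0.06 without siFLuc mock number 4, with -0.52 in siBOP1 mock and 0.05 to 0.32 in the other groups). CDC20, an activator of the anaphase-promoting complex, was at 55.7 to 96.8 TPM against 30.8 to 56.3 TPM at 8 h (0.78, limma adjusted p = 0.00353). Of 45 DNA replication genes, 33 passed upward at 8 h (median 0.42). At 12 h 17 were higher (37.8%, against 28.4% of all genes) and 0 lower, with a median of 0.21. After median-of-ratios rescaling 6 were higher and 2 lower at 12 h, with a median of 0.08. Extracellular matrix genes had 18 of 39 lower at 8 h (median -0.27), with TNC at -1.20 and FN1 at -0.89, and a median of 0.01 at 12 h, or -0.06 without siFLuc mock number 4.

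**Figure D4:**
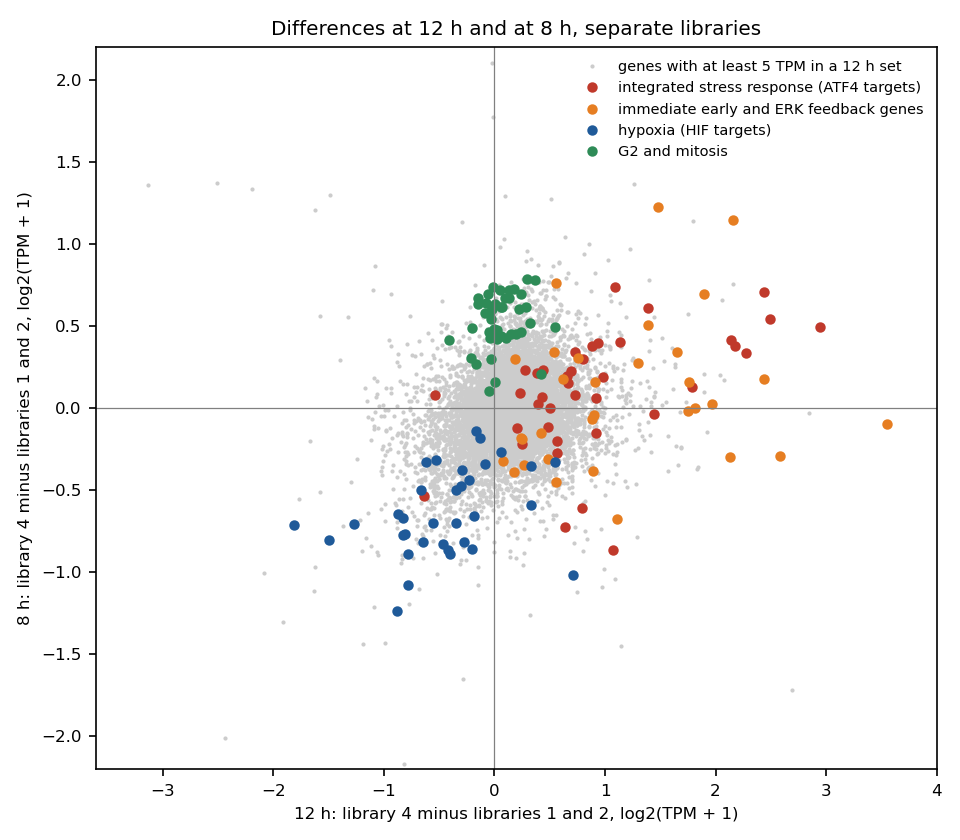
Difference of the libraries numbered 4 at 12 h (x axis) and at 8 h (y axis), log2(TPM + 1), for genes with at least 5 TPM in a 12 h set (grey; 8 of 11109 lie outside the axes) and the members of 4 lists. Hypoxia genes lie mostly at the lower left, integrated stress response genes to the right and slightly above 0, immediate early genes to the right and on both sides of 0, and G2 and mitosis genes above 0 near the middle.

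Whether the 12 h difference depended on treatment was tested as an interaction. Between mock and IFN the difference changed for 19 of 16062 genes, 2 upward (0.0125%) and 17 downward (0.106%), where downward means a smaller or more negative difference in IFN-treated cells. SOCS3, a feedback inhibitor of cytokine signalling, differed by 2.09 in mock and 1.13 in IFN (limma adjusted p = 0.0385). The sets did not overlap in either treatment, with 91.8, 83.4, 72.2 and 71.1 TPM against 17.03 to 38.2 TPM. SOCS1 differed by 1.23 in mock and -0.60 in IFN (adjusted p = 0.0385). CXCL2 and CXCL3 differed by 2.28 and 2.27 in mock and by 1.04 and 1.41 in IFN (limma adjusted p = 0.0385 for both). OAS1, which makes the activator of RNase L, was higher in mock (0.29) and lower in IFN (-0.39), with 30.6 and 25.1 TPM in mock and 729 and 819 TPM in IFN in the libraries numbered 4.

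With the column number as a replicate block, 0 genes passed in either direction. The counts also moved with single libraries, to 32 upward and 53 downward without siBOP1 mock number 4, and to 1 and 0 without siFLuc IFN number 2. For the siRNA, 0 genes passed in either direction by limma (1933 at an unadjusted p under 0.05), while leaving out siFLuc IFN number 4 or siBOP1 IFN number 4 gave 76 higher and 124 lower. A set difference that depended on BOP1 depletion was not detected in the full fit, which had 1 library numbered 4 per group.

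**Figure D5:**
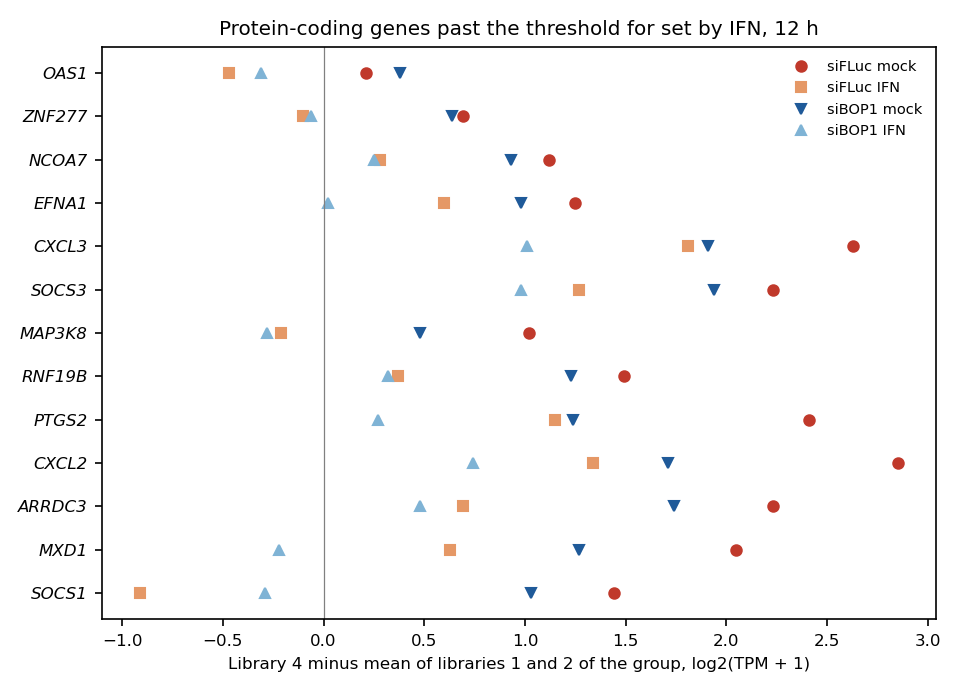
Difference of library 4 in each group (log2(TPM + 1)) for the 13 protein-coding genes past the threshold for a dependence on IFN at 12 h. Mock groups (red circles, dark blue triangles) lie to the right of the IFN groups with the same siRNA for every gene shown.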

How the data were processed

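Polyadenylated RNA of A549 cells was measured in 24 libraries made with a stranded mRNA kit, per the labels' protocols. The authors deposited 1 table of TPM values with 60609 gene rows, and each column sums to 1000000. The aligner, quantifier and genome build are not given in the sources used here. TPM keeps no sequencing depth, so depth is unknown and no counting interval is given. The assignment of reads that fit several near-identical genes is unknown, which makes heat shock, metallothionein, histone and small RNA values less certain.

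Symbols matched 60340 rows, and GENCODE 29 (GRCh38), which may not be the authors' annotation, gave coordinates and exon numbers for 58457. A gene entered the tests if 3 or more libraries had 1 TPM or more (16062 genes). For each, log2(TPM + 1) was fitted by limma (version 3.58.1, R 4.3.3, eBayes with trend, Benjamini-Hochberg over all 16062, limit 0.05), separately for 12 h and 8 h, with group as a factor and a term for number 4. A further 12 h fit added its products with IFN and siRNA. Fits were checked on simulated data. The comparison and the gene lists were chosen with earlier results of these data known. Genes were named by a rule (the 12 largest differences each way with library 4 outside the others in every group, and the 3 largest per list, at a mean of at least 5 TPM), and others, with the exon classes and the CArG box, were chosen after values were seen. Alternatives were a pseudocount of 0.1, other filters, rescaling, no trend, 1 fit of all libraries, a replicate block and leaving out each library. Promoters came from RefSeq (GRCh38.p14) and were searched on both strands for 5 motifs. The antioxidant element TGACNNNGC was in 34.8% of 23 NRF2 target promoters and 15.26% of all. That list was written as NRF2 targets, so its higher share follows from the choice of members. TCACNNCAC, the site of the sterol factor SREBP, was in 1 of 19 promoters of the cholesterol list (5.3%) and 2.99% of all.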

Additional observations from a re-analysis of the deposited data

Results flagged for a closer look

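For 19 genes the difference of the libraries numbered 4 changed between mock and IFN at 12 h, by a limma interaction term past an adjusted p of 0.05. The change (IFN minus mock, log2 scale) was -1.40 for ARRDC3, -0.80 for the ephrin EFNA1, -0.99 for the kinase MAP3K8 and -1.45 for the MAX partner MXD1. It was -1.24 for CXCL2, -0.86 for CXCL3 and -1.11 for PTGS2, the inducible prostaglandin synthase. The cytokine signalling inhibitors SOCS1 and SOCS3 changed by -1.84 and -0.96. NCOA7 changed by -0.76, OAS1 by -0.68, the ubiquitin ligase RNF19B by -1.01 and ZNF277 by -0.74.

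The other 6 were pseudogenes or short RNAs whose reads may be shared with near-identical copies. MTND2P28, a nuclear copy of MT-ND2, changed by 1.45 and the ribosomal protein pseudogene RPL21P120 by 1.93. CD24P4 changed by -2.02, SNRPGP2 by -2.15, SNORA65 by -1.81 and RNVU1-7 by -5.46. Over the 12 h libraries SNORA65 averaged 0.42 TPM, RPL21P120 3.36 TPM and SNRPGP2 4.62 TPM, low levels at which such changes are uncertain. RNVU1-7 was listed at 0 in all 8 libraries numbered 1 or 2, and at 114, 0, 759 and 44.0 TPM in those numbered 4.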

How the results depend on the processing

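Depth is unknown, 1 library numbered 4 per group limits every comparison within a group, and the sign of small 12 h differences depends on scaling. Median-of-ratios rescaling gave 2282 genes higher and 2378 lower at 12 h, and quantile normalization 2239 and 2207. Leaving out 1 library gave 3221 to 4514 higher and 877 to 1282 lower at 12 h, and 441 to 1048 higher and 455 to 1212 lower at 8 h. With no filter the 8 h counts were 655 and 587. Of 179 results for named genes, 149 at 12 h and 124 at 8 h kept direction and side of the limit under every omission of a library. GAPDH reversed at 12 h under quantile normalization (0.02).

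The labels do not say that a replicate number marks a shared culture or day. The difference of number 2 from number 1 had correlations between groups of -0.065 to 0.085 at 12 h and 0.091 to 0.188 at 8 h, and that of number 4 of 0.359 to 0.508 and 0.2 to 0.345, so the number was in part shared, most for number 4. The 8 h p-values come from the fit without the block. With the number as a replicate block 4367 genes were higher and 1240 lower at 12 h, 1414 higher and 1488 lower at 8 h, and 0 in each direction depended on IFN.

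Genes whose difference depended on IFN numbered 40 upward and 58 downward with no filter, 10 and 40 at a mean of at least 5 TPM, and 28 and 57 in a fit of all 24 libraries. Upward there was 1 under quantile normalization, and downward there were 4 without the trend. Omitting 1 library gave 1 to 32 and 0 to 53. For the siRNA the counts were 44 and 38 with no filter, 7 and 5 at a mean of at least 5 TPM, 5 and 1 after median-of-ratios rescaling, 1 and 1 without the trend, 10 and 25 in the fit of all libraries, and 0 to 76 and 0 to 124 on omitting 1 library.

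The 12 h list medians that moved by more than the spread under median-of-ratios rescaling and quantile normalization were 0.00 and 0.03 for the tricarboxylic acid cycle, -0.14 and -0.05 for the respiratory chain, and 0.16 and 0.17 for the unfolded protein response. They were -0.05 and 0.04 for NRF2 targets, 0.00 and 0.00 for fatty acid oxidation, -0.01 and 0.00 for autophagy, and -0.17 and -0.14 for snoRNA hosts. They were -0.21 and 0.00 for large subunit proteins, -0.23 and -0.19 for interferon-stimulated genes, and -0.12 and -0.13 for extracellular matrix. Under the first alone, fatty acid synthesis was at -0.01, metallothioneins -0.63, polyamines 0.06, small subunit proteins -0.21 and translation factors -0.05, and under the second alone ribosome biogenesis was at 0.09. At 8 h quantile normalization gave 0.07 for the tricarboxylic acid cycle, -0.08 for the unfolded protein response and 0.02 for fatty acid synthesis. MondoA targets were at -0.54 with a pseudocount of 0.1 and -0.59 at a mean of at least 5 TPM, where histones were at -0.28. Omitting 1 library at a time gave medians of 0.02 to 0.12 for NRF2 targets and -0.06 to 0.06 for extracellular matrix at 12 h. At 8 h it gave 0.07 to 0.13 for the tricarboxylic acid cycle, 0.01 to 0.05 for NRF2 targets, -0.08 to 0.01 for autophagy, -0.23 to 0.05 for histones and -0.07 to 0.09 for immediate early genes. Apart from the scaling itself, the cause of these shifts was not tested.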

Other observations

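Replication-dependent histones, whose mRNAs mostly lack a poly(A) tail, had 9 of 17 tested members lower at 12 h and 0 higher (median -0.33). That is 52.9% lower, against 7.97% of all genes, but 4 were lower without siFLuc mock number 4. The group medians ran from -0.56 in siFLuc IFN to -0.02 in siBOP1 mock. Non-polyadenylated small structured RNAs such as RMRP and RNU1-1 had a median of -0.72 over 18 genes with 1 lower and 0 higher (0 lower and a median of -0.56 without siFLuc mock number 4), and their group medians ran from -1.32 to 0.09. RMRP was listed at 0 in 3 of the libraries numbered 4, so its level is not interpreted. At 8 h the medians of these lists were 0.04 and 0.23.

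Among noncoding genes with a mean of at least 5 TPM, 118 lincRNA genes had a 12 h median of -0.14, with 34.7% lower, and 106 antisense genes had a median of -0.12, with 27.4% lower. In siFLuc mock both medians were -0.33, and without that library numbered 4 they were -0.08 and -0.01. By chromosome, the 12 h medians lay between 0.07 (X) and 0.21 (13), so no chromosome stood far from the median of 0.15 of all these genes.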
